A study of Saccharomyces cerevisiae with 8 samples.

Results

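Short genes of budding yeast (Saccharomyces cerevisiae) were examined for how many nucleosomes they hold and where these lie. A short gene was a protein-coding gene whose coding sequence spans 250 to 600 bp on the sacCer3 genome, and its nucleosomes were the calls whose centre (dyad) fell inside that span. There were 757 such genes among the 4728 protein-coding genes kept, or 16.01% of them, with a median length of 426 bp. The assay was MNase-seq: micrococcal nuclease cuts the linker DNA that nucleosomes leave exposed, and the fragments they protect are sequenced. Members were chosen by length and place alone, not by any measured value.

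The 8 libraries, 4 untreated and 4 from cells treated with 1,10-phenanthroline, were deposited as lists of nucleosome calls, 1 list per library. The chelator, used in yeast to stop transcription, was given at 100 µg/ml for 30 min at 30 °C. Every library came from the PPY1 background, grown in rich medium (YPD) and, per the study's design, synchronised in G1. All strains share the genotype MATa his3Δ0 leu2Δ0 met15Δ0 ura3Δ0 bar1::leu2, and each carries an insert of 81 bp in 2 further genes. Per the labels the inserts are in CKB2 and DGK1 (strain 1), PPT1 and SLM3 (strain 2), TRP4 and PAN5 (strain 3) and UBX5 and BSP1 (strain 4), none of which is a short gene examined here. Each strain gave 1 untreated and 1 treated library, so n = 4 per group throughout, and no strain was repeated within a group. The labels do not say whether these came from separate cultures, and p-values thus reflect only how far these libraries scatter, which may be technical.

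The strain labels went against the call coordinates. Of 64 pairs of a library and an insertion site, 16 held a coordinate step of 77.5 to 83.5 bp at the site, close to the insert length, and none of these (0) belonged to the strain that the labels name for that site. The largest step in the remaining pairs was 6.5 bp. Both libraries of 1 number carried their steps at the same genes, so treatments were compared as labelled, and a strain below means the library labelled with that number. Positions from just before the first insertion site onward were left out on the 5 chromosomes that carry one (IV, VII, VIII, XV, XVI), which took 939 short genes to 757. The libraries held 57318 to 59197 calls within these limits, of which 1932 to 1947 in untreated and 1983 to 2034 in treated libraries lay in short genes. How deeply each library was sequenced is unknown, since calls carry no read counts; a figure of about 10 M read pairs per sample is all the labels state.

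A nucleosome is DNA wrapped around a core of histone proteins. In yeast most promoters hold a nucleosome-depleted region, bounded upstream by the nucleosome named -1 and downstream by the +1, which lies near the transcription start. From the +1 a regular array runs into the gene, and positions usually become less sharp with distance from it. In a short gene the array meets the end of the gene, and often the next gene's regulatory region, after only a few nucleosomes. Here "gene start" means the first base of the coding sequence, and the +1 and -1 are the pair of nucleosomes with the widest gap around it.

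Untreated short genes held from 0 to a few calls each, more in longer genes, and slightly more with phenanthroline. The mean was 2.57, 2.57, 2.59 and 2.59 calls per gene in the untreated libraries of strains 1 to 4. It was 2.68, 2.63, 2.68 and 2.70 in the treated ones. The groups did not overlap, with 2.58 ± 0.00866 calls without and 2.67 ± 0.0293 with phenanthroline (SD, n = 4 each). The rise of 0.0961 calls per gene, or 3.73%, was present in 4 of 4 strains and passed an exact permutation test (two-sided, p = 0.0286, which 70 splits of 8 libraries cannot go below), with 0.0457 after Benjamini-Hochberg adjustment over 8 library measures. A test that flips the sign within strains gave an exact p of 0.125, the smallest that 4 pairs allow, for this and for every library measure that passed. With calls of score 0.4 or more alone the rise was 0.0598 calls per gene (exact p = 0.0286).

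Across genes the mean untreated library gave 0 calls to 4.79% of short genes, 1 call to 10.5%, 2 calls to 27.7%, 3 calls to 38.5% and 4 calls to 16.4%, with 2.05% holding 5 or more. With phenanthroline the shares with 4 and with 5 or more calls were 19.0% and 3.34%, and those with 1, 2 and 3 calls were 9.05%, 27.1% and 37.1%. The commonest number was 3 in both groups. A set of 333 genes, 44.0% of all, had the same number of calls in all 8 libraries, among them 105 genes with always 2 calls, 128 with always 3 and 46 with always 4.

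By length in steps of 50 bp, untreated short genes held 1.78 ± 0.0213 calls at 250 to under 300 bp (59 genes), 1.72 ± 0.0254 at 300 to under 350 bp (134 genes) and 2.07 ± 0.0338 at 350 to under 400 bp (141 genes). The number went on to 2.59 ± 0.0344 at 400 to under 450 bp (96 genes), 2.89 ± 0.0394 at 450 to under 500 bp (118 genes), 3.33 ± 0.0460 at 500 to under 550 bp (107 genes) and 3.71 ± 0.0304 at 550 to 600 bp (102 genes). The shortest and the next bin differed by little and not in the order of their length. The 6 genes of the 300 to under 350 bp bin and the 12 of the 350 to under 400 bp bin that had 0 calls in every library lowered those means. Across genes, a straight line through length and call number gave 136.9 ± 1.49 bp of added length per call in untreated and 134.1 ± 1.81 bp in treated libraries. These slopes overlapped between groups (exact p = 0.0857), and genes are not replicates, so they describe the libraries only.

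With phenanthroline the number of calls was higher in every bin, at 1.85, 1.81, 2.15, 2.69, 2.98, 3.42 and 3.86 calls per gene from the shortest to the longest. In 5 of the 7 bins the groups did not overlap (exact p = 0.0286, adjusted over the bins 0.04). The exceptions were 250 to under 300 bp and 450 to under 500 bp, each with an exact p of 0.0571 (adjusted p = 0.0571). All 4 strains moved upward in both of these bins too.

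**Figure D1:**
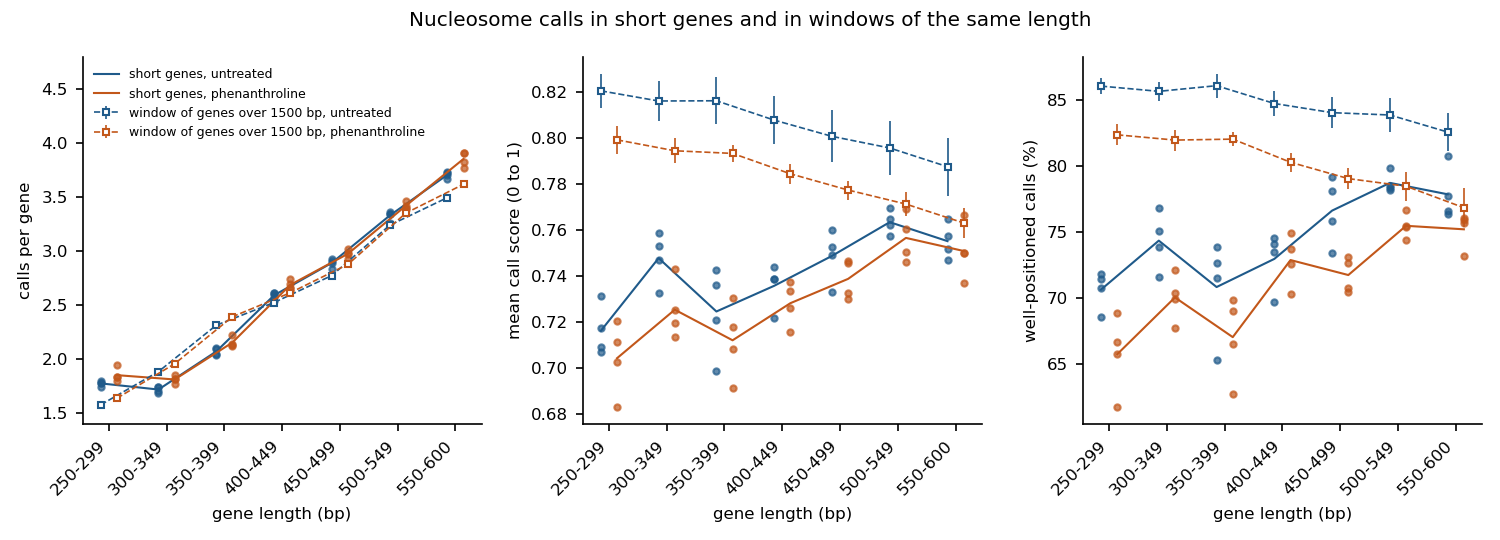
Calls per gene, mean call score and share of well-positioned calls in short genes by gene length (x axis, bp). Points are the 8 libraries, solid lines the group means, and open squares with dashed lines the means ± SD (n = 4) of windows of the same length cut from the start of genes over 1500 bp. Mean scores of short genes lie under those of the windows in every bin and farthest in the shortest one, while call numbers lie above the windows in some bins and below them in others.

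Genes just inside and just outside the length limits were compared without a test. The 20 genes of 252 to 264 bp held 1.60 untreated calls per gene and the 20 of 231 to 249 bp held 1.66. At the upper limit the 20 genes of 594 to 600 bp held 3.73 and the 20 of 603 to 609 bp held 3.69. Their untreated scores were 0.714 inside and 0.770 outside the lower limit, and 0.717 inside and 0.772 outside the upper one.

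A group of 26 short genes had 0 calls in all 8 libraries, and these are named after their values were seen. Of them, 17 lie within 20000 bp of a chromosome end, among them PAU1, PAU6, PAU13, PAU14, PAU16, PAU18 and PAU22, members of the seripauperin family of near-identical genes, and HMLALPHA1 at the silent mating-type locus. MATALPHA1, the alpha-specific mating-type gene that a MATa strain lacks, was another. HMRA2 at the other silent locus, TAR1 in the ribosomal DNA, BRP1, and the neighbouring YLR156W, YLR159W and YLR161W were also without a call. Fragments from near-identical copies may not be placed by a read aligner, and no source used here states the read filters, so a gene without a call is not shown to be without nucleosomes. A further 714 genes had at least 1 call in every library and 605 had at least 2.

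Nucleosomes inside short genes were closer together with phenanthroline. The median distance between neighbouring dyads of 1 gene was 166, 164, 165 and 166 bp in the untreated libraries of strains 1 to 4. It was 162, 161, 162 and 162 bp in the treated libraries. The groups did not overlap, and the mean of 165.25 ± 0.957 bp against 161.75 ± 0.500 bp was a drop of 3.5 bp (at least 1069 distances per library, exact p = 0.0286, adjusted p = 0.0457). Since the gene's length caps how far apart 2 dyads inside it can lie, the distance from the +1 to the +2, which may lie beyond the gene's limits, was measured as well. It averaged 181.2 ± 0.459 bp without and 179.0 ± 0.208 bp with phenanthroline over 644 genes (exact p = 0.0286, adjusted p = 0.0457), lower in 4 of 4 strains. The median over the same genes was lower than this mean, at 169 ± 1.15 bp without and 166.4 ± 0.479 bp with phenanthroline (exact p = 0.0286).

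The spacing inside the gene was shorter with phenanthroline in all 7 length bins (exact p = 0.0286 and adjusted p = 0.0286 in each). Untreated medians ran from 162.1 bp at 350 to under 400 bp to 167.0 bp at 300 to under 350 bp, with no order by length. Treated medians ran from 158.2 bp at 350 to under 400 bp to 164.1 bp at 300 to under 350 bp. The distance from +1 to +2 had an adjusted p of 0.05 in 4 bins, those from 350 bp to under 550 bp. In genes of 300 to under 350 bp it averaged 190.7 ± 0.580 bp without and 190.6 ± 0.702 bp with phenanthroline (exact p = 0.829). The median over these genes was 170 bp without and 169 bp with phenanthroline (exact p = 0.4). The untreated mean from +1 to +2 was 220.6 bp at 250 to under 300 bp and 168.6 bp at 550 to 600 bp. The untreated medians there were 170 and 168.9 bp, so the mean was raised by wide distances in part of the shortest genes.

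The average dyad profile showed the array and its limit. In genes of 550 to 600 bp the untreated maxima lay at 5, 175, 345 and 515 bp from the gene start, so that 4 nucleosomes filled the gene. In genes of 450 to under 500 bp they lay at 15, 175, 345 and 505 bp, the last of them past the gene end. In genes of 250 to under 300 bp the first 2 maxima, at 5 and 185 bp, had heights of 0.102 and 0.0904 dyads per gene per 10 bp, and the next, at 335 bp and so beyond the gene, had 0.0644. The treated maxima lay within 20 bp of the untreated ones at each of these places, and the last maximum of the 450 to under 500 bp bin, at 485 bp in treated libraries, had a height of 0.0762 against 0.0915 untreated. Genes of 300 to under 350 bp were less regular. Their untreated maxima lay at -5, 95, 175 and 345 bp, and the one at 95 bp was lower (0.0412 against 0.0813 at -5 bp). In treated libraries it lay at 85 bp (0.0435).

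The depleted region before short genes was wider and the +1 lay farther downstream with phenanthroline. The mean distance between the -1 and +1 dyads was 259.0, 256.0, 263.8 and 258.6 bp in the untreated libraries of strains 1 to 4 (639 genes). It was 266.9, 265.4, 266.0 and 267.25 bp in the treated libraries. No untreated library reached the treated range, and the gain was 7.05 bp (exact p = 0.0286, adjusted p = 0.0457), or 10.75 bp in the median over genes (exact p = 0.0286). The untreated median over genes was 250.5 bp where the upstream neighbour diverged (313 genes) and 260.9 bp where it ran in tandem (234 genes), and it was 261.25 and 269.75 bp in treated libraries (exact p = 0.0286 for each).

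On average over genes, the +1 dyad of short genes sat almost on the start codon. It averaged -0.687, -2.29, 1.76 and -1.03 bp from the gene start in untreated and 3.66, 2.12, 3.15 and 3.36 bp in treated libraries of strains 1 to 4 (677 genes). Every treated library lay downstream of every untreated one. Single genes lay far to either side of this mean, such as CWP2 at -166 bp and YMR316C-A at 168 bp (untreated means). Because the gene end is fixed by the annotation, the distance from the +1 to the gene end fell by the same 3.64 bp, from 432.5 ± 1.70 bp to 428.8 ± 0.673 bp (exact p = 0.0286, adjusted p = 0.0457). By bin this distance was 290.0, 323.5, 373.4, 428.0, 465.7, 518.8 and 581.1 bp in untreated libraries, with differences of -5.59 to -2.44 bp in treated ones. In 4 of the 7 bins the adjusted p was 0.05.

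The array reached the gene end with no fixed gap. The last dyad inside the gene lay 83.4 ± 1.10 bp before the end in untreated and 81.0 ± 0.852 bp in treated libraries (714 genes), a drop in 3 of 4 strains that did not pass (exact p = 0.0571, adjusted p = 0.0653). By bin the untreated distance went from 72.5 bp at 500 to under 550 bp to 95.25 bp at 300 to under 350 bp, up and down with length. Across the gene end, from the last dyad inside to the first one outside, the median was 173.7 ± 0.625 bp untreated and 175.25 ± 0.500 bp treated (610 genes, exact p = 0.0286). It was 175.25 bp before a tandem neighbour (259 genes) and 170.75 bp before a convergent one (253 genes). The corresponding treated medians of 176.0 and 171.75 bp overlapped the untreated ones (exact p = 0.629 and 0.314). The mean before a tandem neighbour was 216.7 ± 0.705 bp untreated and 218.6 ± 0.252 bp treated, without overlap (exact p = 0.0286). Before a convergent one the mean was 187.0 ± 1.14 bp untreated and 188.2 ± 1.00 bp treated, with overlap (exact p = 0.143).

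The score of a call, between 0 and 1, joins how sharply its fragments are placed with how high its coverage is, relative to its own library. The mean in short genes was 0.751, 0.751, 0.732 and 0.748 in untreated libraries and 0.738, 0.749, 0.731 and 0.726 in treated libraries of strains 1 to 4. It was lower with phenanthroline in each strain, yet the groups overlapped and the difference of -0.0100 did not pass (exact p = 0.2). Leaving out each strain in turn put it at -0.0129 to -0.00596, the latter without strain 4. Well-positioned calls, the authors' class W for a sharp and well-covered nucleosome, made up 75.3% ± 1.74 of calls in short genes without and 72.0% ± 1.16 with phenanthroline (exact p = 0.0571, adjusted p = 0.0653).

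The score differed by place in the array. The -1 of short genes scored 0.804 ± 0.00645 untreated and 0.770 ± 0.00985 treated, and the +1 scored 0.819 ± 0.00793 and 0.796 ± 0.00896, and in neither did the groups overlap (exact p = 0.0286 each). The +2 scored 0.788 ± 0.00840 and 0.786 ± 0.00704 (exact p = 0.657). The last dyad before a convergent neighbour scored 0.773 ± 0.0132 untreated and 0.745 ± 0.00505 treated (291 genes, exact p = 0.0286), and before a tandem neighbour 0.753 ± 0.0152 and 0.750 ± 0.0143 (286 genes, exact p = 0.743). These place-by-place values are outside the adjustment over library measures, and whether the places differ from each other in their change was not tested.

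Compared with longer genes over the same length, short genes had on average as many nucleosomes, of lower score. Windows of the same length as each bin were cut from the start of the 1756 genes over 1500 bp and weighted as the short genes are. The windows held 2.57 untreated calls against 2.58 in short genes. Their score was 0.806 ± 0.0104 against 0.743 ± 0.00980, and 84.7% ± 0.991 of their calls were well positioned against 74.7% ± 1.89. Scores of short genes were lower in 8 of 8 libraries, by 0.0443 to 0.0739 in the untreated ones (exact sign-flip p = 0.125, the smallest that 4 libraries allow).

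The gap was widest in the shortest genes. At 250 to under 300 bp the untreated score was 0.716 in short genes and 0.821 in the windows, and at 550 to 600 bp it was 0.755 and 0.788. The short genes alone were then filtered, while the windows still came from all genes over 1500 bp. Without short genes that overlap another gene, belong to near-identical families or lie near chromosome ends, the untreated gap was -0.0504 (622 genes). With a gene symbol required as well it was -0.0390 (491 genes). In both of these sets short genes were lower in 8 of 8 libraries. In the last set they held 2.85 calls per gene against 2.66 in the windows and were above the windows in every library, so the match in number over all 757 genes included the genes with few or 0 calls.

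Over whole genes the order turned around. The untreated mean score was 0.746 in short genes, 0.714 in 2040 genes over 600 and up to 1500 bp and 0.616 in genes over 1500 bp. Whole longer genes also include the downstream part of an array, and whether this bears on the order was not tested.

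The position of the +1 went with gene class. It lay at -0.562 ± 1.70 bp from the gene start in untreated short genes, at -9.08 ± 2.47 bp in genes over 600 and up to 1500 bp and at -19.3 ± 2.39 bp in genes over 1500 bp. With phenanthroline these were 3.07, -4.26 and -15.1 bp. The mean untreated depleted region was 259.3 bp wide in short genes, 268.9 bp in the middle class and 264.4 bp in the longest.

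Whether phenanthroline went with different changes in short and in longer genes was tested for 11 comparisons, and none passed after adjustment (smallest adjusted p = 0.157). The depleted region widened by 7.05 bp in short genes, by 8.70 bp in genes over 600 and up to 1500 bp and by 7.80 bp in genes over 1500 bp. The differences of -1.65 and -0.749 bp held in 4 of 4 strains (exact p = 0.0286 each before adjustment). Calls per gene rose by 0.0961 in short genes and by 0.0925 in the windows of longer genes (exact p of the difference = 0.771). The mean score changed by -0.0113 in short genes and by -0.0231 in the windows, a difference of 0.0118 with an exact p of 0.171.

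Single short genes were tested in a fit over all genes with limma, a linear model that shares the spread between genes, at a Benjamini-Hochberg adjusted p of 0.05. The gene score, the mean over the calls in the gene, rose in 30 and fell in 39 of the 714 short genes tested. Over all 4528 genes tested, 2.76% rose and 3.62% fell, against 4.20% and 5.46% of the short genes. The median change was -0.00517 in short genes and -0.00674 in all. Where scores were first centred on the median of each library, 71 short genes rose and 30 fell, so the balance between rises and falls depends on the scale. The counts also depend on single strains: without strain 1 they were 0 and 1 (61 and 85 at an unadjusted p under 0.05), without strain 4 they were 4 and 4, and rises numbered 20 without strain 2 and 16 without strain 3.

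RGI1 (chromosome V, 292066 to 292551, plus strand), a small protein involved in energy metabolism under respiratory growth, had a fall that passed in every alternative tried, the only one of 36 calls on named genes to do so. Its score was 0.866, 0.899, 0.862 and 0.912 in the untreated libraries of strains 1 to 4 and 0.634, 0.687, 0.685 and 0.728 in the treated ones. All treated values lay below all untreated ones, by 0.201 ± 0.0225 on average (SE, limma adjusted p = 0.00406). The fall of RGI1 was 0.116 when only calls with a score of at least 0.4 were used (limma adjusted p = 0.0155). Untreated libraries held 3 calls in RGI1, at 89 to 96, 258 to 264 and 433 to 436 bp from the start. In treated strains 1, 2 and 3 an added call of low score, 0.318, 0.290 and 0.378, lay at 364, 360 and 369 bp, and the first call scored 0.606, 0.787, 0.722 and 0.650 in strains 1 to 4 against 0.878 or more in all untreated libraries.

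RPS15 (chromosome XV, 253149 to 253577, minus strand), a protein of the small ribosomal subunit, rose. Its score was 0.679, 0.575, 0.564 and 0.675 untreated and 0.841, 0.838, 0.854 and 0.799 treated, with no overlap (difference 0.210 ± 0.0294, limma adjusted p = 0.0071). The first call inside RPS15 was spread over 79.5, 12, 108 and 73.5 bp in the untreated libraries. In the treated ones it lay at 116, 128, 121 and 112 bp.

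UMP1 (chromosome II, 581726 to 582172, minus strand), an assembly factor of the proteasome, rose from 0.675 ± 0.0399 to 0.858 ± 0.0251 (limma adjusted p = 0.00555). Its first dyad, at 3 to 13 bp, scored 0.892 to 0.909 untreated and 0.868 to 0.911 at 14 to 18 bp treated. The second call of UMP1 scored 0.552, 0.568, 0.620 and 0.601 untreated and 0.809, 0.862, 0.876 and 0.797 treated. The change in this gene thus lay in the nucleosomes after the +1, and the third call scored 0.466 to 0.673 untreated and 0.816 to 0.889 treated.

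GIM4 (chromosome V, 148176 to 148599, plus strand), a subunit of the chaperone prefoldin, fell from 0.861 ± 0.0136 to 0.723 ± 0.0147 (limma adjusted p = 0.00406). Its 3 calls kept their places near 33 to 41, 206 to 212 and 351 to 368 bp. The middle call scored 0.852 to 0.912 untreated and 0.809 to 0.894 treated, so it overlapped, while the first was at 0.915 or more in every untreated library and at 0.852 or less in every treated one. The last call of GIM4 scored 0.816, 0.810, 0.728 and 0.693 untreated and 0.539, 0.645, 0.475 and 0.510 treated, and its groups did not overlap either. ISD11 (chromosome V, 250718 to 251002, plus strand), a protein needed for mitochondrial iron-sulfur cluster formation, held 1 call, which scored 0.916, 0.879, 0.857 and 0.917 untreated and 0.624, 0.627, 0.621 and 0.777 treated (limma adjusted p = 0.0102). Its +1, just upstream of the gene at -23 to -30 bp, scored 0.916 or more in all 8 libraries.

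The other large rises were in PAU20, a seripauperin (0.575 to 0.796, limma adjusted p = 0.0071), NCW1, a cell wall protein (0.433 to 0.641, adjusted p = 0.0116), YFL067W (0.383 to 0.578, adjusted p = 0.0229) and CWP2, a mannoprotein of the cell wall (0.534 to 0.700, adjusted p = 0.0313). PAU20 and YFL067W lie in near-identical families or near a chromosome end, and their values are uncertain. With the strain as a block YFL067W had a limma adjusted p of 0.053. The other large falls were in YCR041W (0.747 to 0.458, limma adjusted p = 0.011), YJL007C (0.873 to 0.640, adjusted p = 0.0375), YMR082C (0.840 to 0.612, adjusted p = 0.0411) and YCR085W (0.827 to 0.603, adjusted p = 0.0151), all without a gene symbol. YCR041W and YJL007C overlap another gene, and calls in a shared part cannot be assigned to either gene. YCR041W starts inside MATALPHA1, which a MATa strain lacks and which held no call in any library, so its values are uncertain. YMR082C had a limma adjusted p of 0.0631 with the strain block. Without strain 4 its difference was -0.149 in place of -0.228 (limma adjusted p = 0.115).

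**Figure D2:**
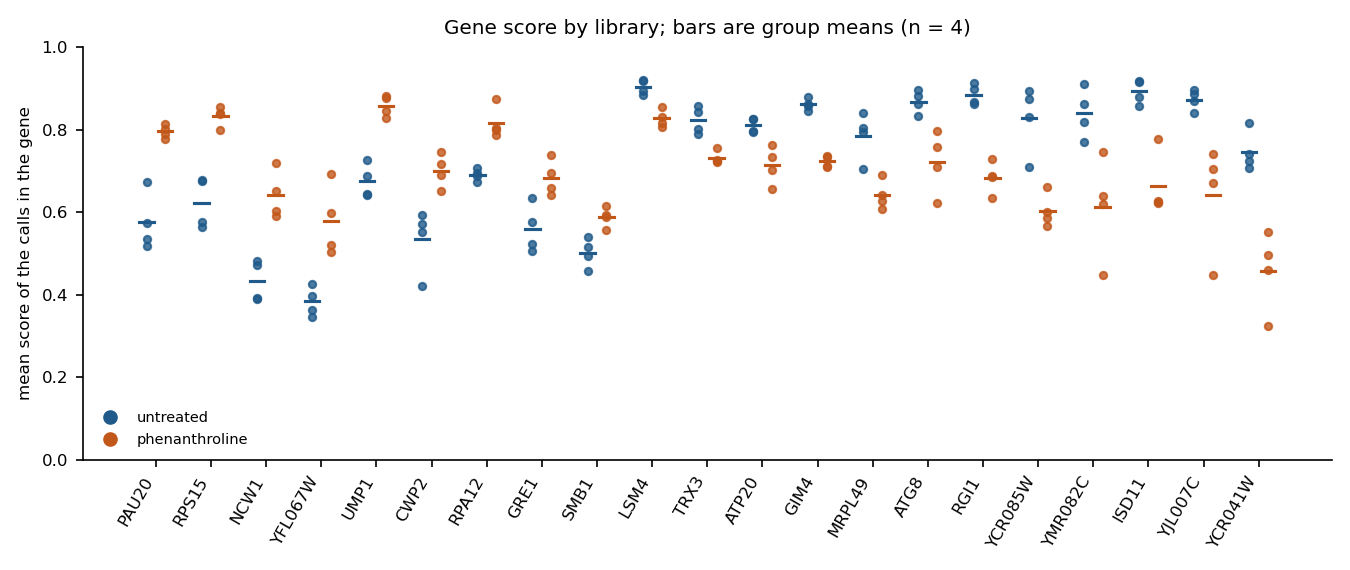
Mean score of the calls in each gene (y axis, 0 to 1) in the 4 untreated and 4 phenanthroline libraries, for 21 named short genes that passed the test. Bars are group means (n = 4); genes from PAU20 to SMB1 rose and those from LSM4 to YCR041W fell, and the treated points of ISD11 hold 1 library apart from the other 3.

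The +1 of short genes moved downstream in 122 and upstream in 22 of 677 genes (18.0% and 3.25%), against 18.2% and 1.95% of the 4399 genes tested. The depleted region widened in 157 and narrowed in 12 of 639 short genes (24.6% and 1.88%), against 24.3% and 1.86% of 4141 genes. The shares moving downstream and widening were near those of all genes. With the strain number as a block these counts fell to 5, 1, 2 and 1, and without strain 1 or without strain 4 the downstream moves numbered 1 and 2, so single genes are to be read with this limit. Widened genes numbered 2 without strain 1 and 3 without strain 4, and without strain 2 there were 22 downstream moves and 18 widenings. Upstream moves and narrowings in these fits numbered 0 to 4. Without strain 3 the counts were higher, at 144 downstream and 26 upstream moves, 192 widenings and 15 narrowings. From the shortest bin to the longest, the downstream moves were 11 of 54, 13 of 114, 17 of 115, 18 of 82, 24 of 111, 22 of 101 and 17 of 100 genes.

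SNA3 (chromosome X, 136372 to 136773, minus strand), a membrane protein of the vacuolar sorting pathway, had its +1 at -8, -11, -10 and -15 bp untreated and at 24, 17.5, 23 and 53 bp treated (limma adjusted p = 0.0199, or 0.0572 in the fit blocked by strain). The groups were far apart, with treated strain 4 the farthest downstream. YFL019C moved by 41.0 bp (limma adjusted p = 0.033, block 0.0496), YMR316C-A by 41.8 bp (adjusted p = 0.0109, block 0.0527) and YJR112W-A by 37.25 bp (adjusted p = 0.0437, block 0.0748). In YJR112W-A the untreated values of 8, -13, 35 and -15 bp were spread over 50 bp, and those of the treated libraries were 39 to 45 bp. YMR316C-A lies near a chromosome end and overlaps another gene.

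Moves upstream were seen in TMA19 (chromosome XI, 334412 to 334915, minus strand), the yeast form of the translationally controlled tumour protein. Its +1 lay at -50, -56, -18 and -64 bp untreated and at -87, -85, -82 and -78 bp treated (limma adjusted p = 0.0346, with the strain block 0.0641). In each treated library of TMA19 a further call lay at -7 to -10 bp, where 0 untreated libraries held 1, so the treated libraries held a pair of weak calls there (scores of 0.318 to 0.486) in place of 1. In ADI1, an enzyme of the methionine salvage pathway, the call taken as the +1 lay at -37, -60, -31 and -33 bp untreated and at -67, -68, -79 and -70 bp treated (limma adjusted p = 0.0234, block 0.0621). In the treated libraries of ADI1 that call was weak, with scores of 0.283, 0.270, 0.291 and 0.381, and beside it lay a new call of higher score (0.782, 0.714, 0.765 and 0.711) at 4, 0, 9 and 14 bp. YBR137W moved by -36.0 bp (limma adjusted p = 0.0308, block 0.0556) and YPL119C-A by -29.25 bp (adjusted p = 0.0252, block 0.0568).

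The largest widenings were in DPC13 (216 to 267 bp, limma adjusted p = 0.0297, with the strain block 0.0585), YFL019C (180 to 231 bp, adjusted p = 0.044, block 0.066) and YMR316C-A (132.5 to 182 bp, adjusted p = 0.00781, block 0.05005, just above the threshold). DPC13 overlaps another gene. The largest narrowings were in TMA19 (382 to 345 bp, limma adjusted p = 0.0293, block 0.068), GRX1, a glutaredoxin (251 to 221 bp, adjusted p = 0.0196, block 0.0513), and NCW1 (435 to 407.5 bp, adjusted p = 0.0263, block 0.0513). The 4 treated widths of GRX1, 214, 238, 224 and 209 bp, all lay under its untreated ones of 248 to 254 bp.

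The number of calls did not overlap between groups in 14 short genes. All treated libraries were higher in 10 (1.32% of the short genes, against 2.66% of all 4728 genes) and lower in 4 (0.528%, against 0.233%). Most of the 4728 genes are longer and hold more calls, so these shares are not like for like. No test was made for single genes, and with 1 strain left out, which makes overlap rarer, 14 to 22 genes were higher and 6 to 9 lower.

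CDC42 (chromosome XII, 604212 to 604787, minus strand), the small GTPase that sets cell polarity, had 6, 6, 5 and 5 calls untreated and 4, 3, 4 and 4 treated. Each untreated library held a call of low score at 377, 390, 368 and 369 bp from the start of CDC42, between 2 others, and 0 treated libraries did. The treated dyads of CDC42 were evenly spaced, in strain 1 at 0, 151, 303 and 457 bp. In strain 2 the first dyad lay at -1 bp and so outside the gene, which gave its count of 3.

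In CYB5, cytochrome b5, and in HCH1, a regulator of the chaperone Hsp90, the number went from 3 calls to 2 in every library by a step over the gene start. The first dyad of CYB5 lay at 8, 4, 0 and 7 bp untreated and at -21, -15, -17 and -6 bp treated. That of HCH1 lay at 13, 14, 1 and 12 bp untreated and at -9, -8, -7 and -5 bp treated. In both genes the dyad shifted over the border of the gene. YER188C-A, near a chromosome end, had 1 call in each untreated and 0 in each treated library.

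FIS1 (chromosome IX, 241308 to 241775, minus strand), a receptor of mitochondrial fission, went the other way, from 3 calls in each untreated library to 4, 4, 4 and 5. Its first dyad lay at -27, -23, -16 and -26 bp untreated and at 11, -7, 6 and 12 bp treated. In treated strains 2 and 4 of FIS1, of which strain 2 kept its first dyad outside the gene, a call of low score, 0.185 and 0.232, was added at 380 and 390 bp. RPL24A, a ribosomal protein with a near-identical copy, had 3, 4, 4 and 3 calls untreated and 5 in each treated library. YGR018C, which overlaps another gene, went from 1 to 2 or 3 calls, and YLR297W from 3 to 4 or 5.

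**Figure D3:**
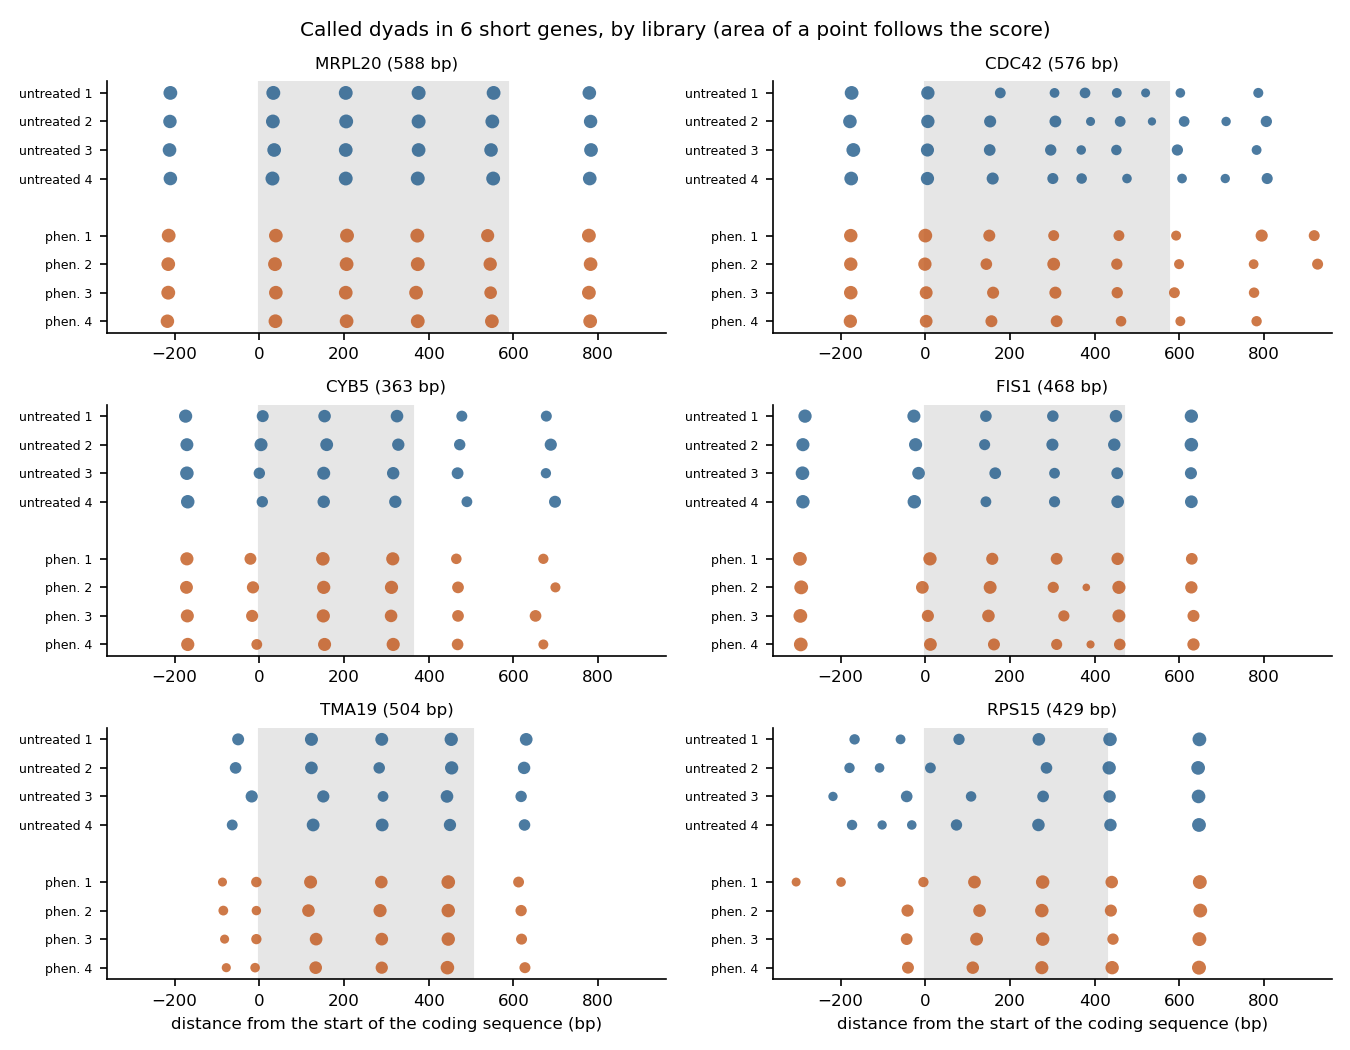
Called dyads in and around MRPL20, CDC42, CYB5, FIS1, TMA19 and RPS15 in the 8 libraries (rows), by distance from the start of the coding sequence (x axis, bp). Grey marks the gene and the area of a point follows the score; the dyads of MRPL20 line up in all 8 libraries, CDC42 loses a weak call near 370 bp, and the first dyads of CYB5 and FIS1 cross the gene start in opposite directions.

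Untreated short genes ranged from sharply ordered to fuzzy at every length. The highest mean untreated scores per bin, among genes with at least 2 calls in each untreated library, were those of DAD3, a kinetochore subunit (0.944), SMD3, a core protein of the spliceosome (0.955), GON7 of the KEOPS complex (0.975), RSM18 of the mitochondrial ribosome (0.936), FYV7, involved in ribosomal RNA processing (0.951), YER085C (0.943) and MRPL20 of the mitochondrial ribosome (0.953). The lowest were NCW1 (0.433), YMR141C (0.468), YGR050C (0.396), APQ13 (0.432), YMR008C-A (0.464), NPC2, a sterol-binding protein (0.478), and RRT13 (0.481). These were picked by their untreated values, which are given as a description. With phenanthroline RRT13 stood at 0.578 (limma adjusted p = 0.0238, block 0.0503), against values that chose it, and the other genes of this paragraph picked for their level, NCW1 apart, did not pass. MRPL20 (chromosome XI, 599094 to 599681, minus strand) showed how exact such a gene can be, with untreated dyads at 31 to 35, 204 to 205, 374 to 376 and 547 to 553 bp in the 4 libraries.

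Gene groups differed in their level. The median untreated gene score was 0.788 over all short genes tested. It was 0.896 in 29 genes of the mitochondrial ribosome, which makes the proteins encoded in mitochondria, and 0.880 in 11 genes of Sm and LSm proteins, which form rings on small nuclear RNAs and on messenger RNA. It was 0.664 in 23 cytosolic ribosomal protein genes, 0.586 in 7 histone genes and 0.577 in 6 genes of small heat-shock and stress proteins. Prefoldin subunits (0.844, 6 genes), ubiquitin-like and ubiquitin-conjugating proteins (0.837, 8 genes), small RNA polymerase subunits (0.830, 5 genes), thioredoxins and glutaredoxins (0.802, 6 genes), the respiratory chain and ATP synthase (0.791, 18 genes) and the small TIM chaperones of the mitochondrial intermembrane space (0.788, 4 genes) lay at or above the median of all. The list of thioredoxins and glutaredoxins also held SOD1, a superoxide dismutase. The seripauperins had a median of 0.685 in the 10 of 19 genes that could be tested, and 7 of the 19 held 0 calls in every library.

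Few members of any group passed the score test with phenanthroline, read against 2.76% rises and 3.62% falls among all genes. Of the mitochondrial ribosome genes 1 fell and 0 rose (3 and 1 at an unadjusted p under 0.05, limma), and it was MRPL49 (0.786 to 0.641, limma adjusted p = 0.0253). Their +1 moved downstream in 10 of 29 and the depleted region widened in 12 of 29, beside 18.2% and 24.3% of all genes, with median shifts of 3.5 and 9 bp against 3.5 and 7.25 bp over all genes. Of the ribosomal protein genes 1 rose, RPS15, and 0 fell (5 and 1 at an unadjusted p under 0.05). The other member of this group named by the rule, RPL11A, had 0.738 and 0.805 (limma adjusted p = 0.088), and its near-identical copy makes it uncertain. MRP17 of the mitochondrial ribosome had 0.896 and 0.844 (adjusted p = 0.138).

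ATP20, a subunit of the ATP synthase, fell from 0.811 to 0.714 (limma adjusted p = 0.0417, with the strain block 0.0592) as the 1 fall in its group, beside 0 rises (5 and 1 at an unadjusted p under 0.05). ATP7 of the same enzyme had 0.874 and 0.784 (adjusted p = 0.0567). Of the prefoldin genes GIM4 fell and 0 rose (2 and 2 at an unadjusted p under 0.05), and PAC10 had 0.658 and 0.805 (adjusted p = 0.0563). In the Sm and LSm group LSM4 fell from 0.904 to 0.827 (limma adjusted p = 0.035, block 0.0583) and SMB1 rose from 0.502 to 0.588 (adjusted p = 0.044, block 0.0706). With calls of score 0.4 or more the rise of SMB1 was 0.0243 (limma adjusted p = 0.709).

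RPA12, a subunit of RNA polymerase I, rose from 0.690 to 0.815 (limma adjusted p = 0.0151), and RPC19, shared by RNA polymerases I and III, had 0.830 and 0.871 (adjusted p = 0.245), with 1 rise and 0 falls in that group (1 and 0 at an unadjusted p under 0.05). TRX3, the mitochondrial thioredoxin, fell from 0.822 to 0.732 (limma adjusted p = 0.0303, block 0.0586), and ATG8, the ubiquitin-like protein of autophagy, fell from 0.868 to 0.721 (adjusted p = 0.037, block 0.0451), each as the 1 fall of its group beside 0 rises (2 falls and 1 rise at an unadjusted p under 0.05 in both). GRX1 had 0.814 and 0.721 (limma adjusted p = 0.129), and UBC7, a ubiquitin-conjugating enzyme, 0.861 and 0.767 (adjusted p = 0.149). GRE1, a stress-induced hydrophilin, rose from 0.559 to 0.683 (limma adjusted p = 0.0484, block 0.0547), and RGI1 was the 1 fall of the stress group. PAU20 was the 1 rise among the seripauperins, beside 0 falls (4 and 0 at an unadjusted p under 0.05, limma), and PAU17 had 0.509 and 0.582 (adjusted p = 0.0736). Of the histone genes 0 rose and 0 fell (1 and 0 at an unadjusted p under 0.05, limma), with 0.586 and 0.693 in HTZ1, the variant H2A.Z (adjusted p = 0.0657), and 0.675 and 0.580 in HHF2, a gene for H4 (adjusted p = 0.271). Of the small TIM genes 0 rose and 0 fell (0 and 0 at an unadjusted p under 0.05, limma), with 0.769 and 0.822 in TIM9 and 0.695 and 0.744 in TIM12.

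Short genes without a symbol, which are mostly of unknown function and some of which may not encode a protein, held fewer calls of lower score than the rest. The 563 genes with a symbol held 2.77 ± 0.0171 untreated and 2.87 ± 0.0235 treated calls and scored 0.764 and 0.760. The 194 without a symbol held 2.02 ± 0.0367 and 2.10 ± 0.0499 calls and scored 0.713 and 0.683. The 74 genes in near-identical families or near chromosome ends held 1.91 calls in both groups and scored 0.661 untreated and 0.679 treated. The sets were not matched for length, with which the number of calls rises, and genes without any call were counted in the call means. At least 1 call in every untreated library was held by 548 of the 563 genes with a symbol and by 169 of the 194 without. These splits of the short genes were described and not tested.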

How the data were processed

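The deposited files hold the authors' nucleosome calls, which name nucleR in their columns and are on sacCer3 per the submitters' processing notes. The deposited score (0 to 1, the mean of a width score and a height score) is relative within a library. Aligner, filters and thresholds: not given in the sources used here. Per the labels' protocols, semi-intact cells were digested to about 80% mononucleosomes and sequenced as pairs of 75 bp reads. Of calls in short genes, 95.5% were 147 bp wide. The dyad was the centre of a call.

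Genes came from the RefSeq table of R64, as spans of the coding sequence with any intron (32 short spans are not multiples of 3), and strand came from the systematic name. Dyads of all libraries were pooled and smoothed (Gaussian kernel, SD 20 bp). Maxima at least 80 bp apart took the nearest call within 60 bp, and arrays kept the maxima with calls in 4 or more libraries. The +1 was sought between -150 and 200 bp from the gene start. Spacing used distances of 100 to 300 bp.

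Library values were compared with exact permutation tests and genes with limma 3.58.1 in R 4.3.3, both without a block, with Benjamini-Hochberg adjustment. Untreated and treated libraries of 1 number pair because the labels name the same strain. Deviations from the group means correlated at -0.0121, 0.103, 0.115 and 0.118 over 714 genes for strains 1 to 4. Exactly shared dyads between any pair of libraries stayed at 7.88% or less. Named genes were those past the threshold with all strains moving alike (the 6 largest rises and falls of score, 4 shifts of the +1 and 3 widths each way), the highest and lowest score per bin, up to 4 call numbers each way and 2 members per list. The members and lists were chosen with earlier results of these data known.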

Additional observations from a re-analysis of the deposited data

Results flagged for a closer look

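Of 68 groups of 4 libraries checked for a library far from the other 3, 3 held one, and chance gives about 1 in 20. The median spacing inside short genes was 161 bp in the phenanthroline library of strain 2 and 162 bp in each of the other 3, a gap of a single bp in a value counted in whole bp. ISD11 scored 0.777 in the phenanthroline library of strain 4 and 0.621 to 0.627 in the others. The +1 of YJR112W-A lay at 45 bp in the phenanthroline library of strain 4 and at 39 to 40 bp in the others.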

How the results depend on the processing

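With the strain as a block the exact sign-flip p of each library measure that passed was 0.125, the smallest possible. The differences were unchanged (calls 0.0961 per gene, spacing -3.5, +1 to +2 -2.24, +1 to gene end -3.64 and depleted width 7.05 bp). The width changes against longer classes, -0.749 and -1.65 bp, had not passed after adjustment, and their sign-flip p was 0.125 too. In the blocked limma fits the downstream, upstream, widened and narrowed genes numbered 5, 1, 2 and 1. Leaving out each strain in turn, the smallest p is 0.1 by construction. The differences then spanned 0.0894 to 0.107 calls, -3.67 to -3.33 bp of spacing, -2.38 to -2.16 bp from +1 to +2, -4.39 to -3.38 bp from +1 to gene end and 6.27 to 8.68 bp of width. Against longer classes the width spanned -0.816 to -0.617 and -1.85 to -1.32 bp, calls against windows -0.00483 to 0.0115, and +1 to +2 against the middle class -0.0122 to 0.300 bp. Gene counts then spanned 0 to 20 rises and 1 to 31 falls of score (at least 61 and 85 at an unadjusted p under 0.05), 1 to 144 downstream and 0 to 26 upstream moves, 2 to 192 widenings, 0 to 15 narrowings, and 14 to 22 higher and 6 to 9 lower call numbers. The cause of these spans was not tested.

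With calls of score 0.4 or more the well-positioned share differed by -2.63 points (exact p = 0.0286), calls against windows by -0.00277, and the width against longer classes by -0.627 and -1.48 bp (exact p = 0.143 and 0.0571). With the +1 taken nearest the gene start, +1 to +2 and +1 to gene end differed by -0.957 and -2.87 bp (exact p = 0.0571 each). The last dyad moved by -2.49 bp without overlapping genes and by -2.55 bp for spans that are multiples of 3, an alternative added after seeing the data (exact p = 0.0286 each). In bins of 100 bp, 3 bins passed for well-positioned share, 4 for spacing and 0 for +1 to +2. Centred scores gave 71 rises, and GON7 0.00349 and YMR008C-A 0.0225. Leaving out each strain in turn put YMR008C-A at -0.0178 to 0.0273 and YGR050C at -0.00205 to 0.0564. Comparing the span with the protein's length was not run, for lack of protein lengths here. Depth per library is unknown, so a weak call missed in 1 library cannot be told from an absent nucleosome.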
